A study of Mus musculus with 4 samples.

Results

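The genes described here are 10 genes of the endoplasmic reticulum (ER) stress response, taken by symbol from the 32285 genes of the deposited count tables: Xbp1, Hspa5, Hsp90b1, Dnajb9, Sdf2l1, Pdia3, Pdia6, Creld2, Syvn1 and Derl3. Each symbol matched 1 gene. Droplet sequencing of RNA from isolated nuclei was used, with a unique molecular identifier (UMI) on each captured transcript. The tissue was liver outside the tumors of male mice aged 12 months, all of which had been given the liver carcinogen diethylnitrosamine (DEN, 25 mg/kg) when 14 days old. The 4 libraries were 2 labelled Brca1-KO and 2 labelled Brca1-WT, and the labels call them biological replicates. The title places the Brca1 loss in the liver; the sources used here do not give the allele, the deleted exons, the promoter of any Cre, the strain or the number of animals in a library. Pairs of values below are for replicate 1 and then replicate 2.

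Proteins that hepatocytes secrete are folded in the ER. When unfolded proteins build up there, the sensors IRE1, PERK and ATF6 start the unfolded protein response. IRE1 splices the mRNA of the transcription factor Xbp1, ATF6 is cut to release a transcription factor, and together these raise genes for chaperones, disulfide isomerases and the machinery that returns misfolded proteins to the cytosol for degradation (ER-associated degradation, ERAD). PERK slows translation and acts through Atf4, with targets such as Trib3 and Ddit3. In liver the response also follows feeding, when secretion is high.

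The promoters of these genes show what many of them share. ATF6 and the CCAAT-binding factor NF-Y are known to bind the ER stress response element, CCAAT followed after 9 bases by CCACG. A search on both strands of the RefSeq promoters (GRCm38.p6, 250 bases before to 50 after each start) found this element in 6 of the 10 genes. It was in 0.137% of all genes searched (37 of 27025) and 0.119% of all promoters (39 of 32851). The element is known from genes of this response, so its count here is a description. The stretches that hold the element are printed 5′ to 3′ on the gene's strand, with its matching bases in capitals, because they mark which of the 10 genes carry it. An element that reads CCAAT first lies on the gene's own strand, and one that reads CGTGG first lies on the opposite strand.
Hspa5 (chr2:34772005-34772063, + strand): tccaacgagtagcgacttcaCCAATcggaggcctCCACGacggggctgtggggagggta
Hsp90b1 (chr10:86705513-86705676, - strand): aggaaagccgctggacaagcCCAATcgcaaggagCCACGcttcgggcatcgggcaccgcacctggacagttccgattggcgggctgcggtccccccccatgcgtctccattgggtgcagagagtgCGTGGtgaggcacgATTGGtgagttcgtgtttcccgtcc
Pdia6 (chr12:17266471-17266529, + strand): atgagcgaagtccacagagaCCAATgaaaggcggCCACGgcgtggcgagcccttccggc
Creld2 (chr15:88819500-88819558, + strand): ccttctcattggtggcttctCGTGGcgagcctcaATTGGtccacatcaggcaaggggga
Syvn1 (chr19:6046512-6046570, + strand): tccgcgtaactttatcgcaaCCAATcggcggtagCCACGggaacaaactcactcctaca
Derl3 (chr10:75893222-75893280, + strand): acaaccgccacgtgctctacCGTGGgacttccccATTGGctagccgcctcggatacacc
Hsp90b1 held the element at 2 places and the other 5 genes at 1 place each. The exact letters were not in the windows of Pdia3, Sdf2l1, Dnajb9 or Xbp1, which says nothing of binding there. CCACG alone, which is part of the element, was in 8 of the 10 promoters and in 32.8% of all promoters. ATTGG followed after 1 base by CCACG, TGACGTGG (whose reverse strand also holds CCACG) and TTGCATCA were in 0 of the 10 promoters and in 0.0365%, 0.676% and 0.895% of all promoters.

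The libraries held 36662067 and 45076257 UMIs labelled Brca1-KO and 45638888 and 40077856 UMIs labelled Brca1-WT, and 4795 and 6260 nuclei against 5843 and 6970 nuclei were kept. Nuclei were clustered and clusters named after markers, and 2573 and 4091 nuclei of the libraries labelled Brca1-KO were hepatocyte-like, against 2644 and 3998 of Brca1-WT. Brca1-KO replicate 2 stood apart, since 95.3% of its hepatocyte-like nuclei lay in 3 clusters that held 0.0777% of those of Brca1-KO replicate 1 and 1.82% and 2.48% of those of Brca1-WT. In hepatocyte-like nuclei Brca1 itself, a DNA repair gene, was at 18.6 and 5.78 CPM (UMIs per 1000000 UMIs of the class) in libraries labelled Brca1-KO and 13.1 and 12.3 in Brca1-WT (edgeR quasi-likelihood test, Benjamini-Hochberg adjusted p = 1.0). Brca1 was thus higher in Brca1-KO replicate 1 than in both Brca1-WT libraries, and tags outside the deleted exons would check nothing. Pairs of libraries shared 9 to 19 barcodes. Hepatocyte marker levels in the other named classes had a median of 16.2% to 87.5% of the hepatocyte-like level, which bears on every level given for those classes.

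In hepatocyte-like nuclei the genes for chaperones and disulfide isomerases were highest in Brca1-KO replicate 2, with 1.84 to 3.14 times the level of Brca1-KO replicate 1. Brca1-WT replicate 2 was lowest for each of the 10 genes. The ERAD genes Syvn1 and Derl3 were instead highest in Brca1-KO replicate 1. Like Hsp90b1, Pdia3, Pdia6, Creld2 and Sdf2l1, they were higher in both libraries labelled Brca1-KO than in both Brca1-WT libraries. This held for 14.7% of all genes tested. Tags at one end of the transcript do not tell spliced from unspliced Xbp1 mRNA.

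**Figure D1:**
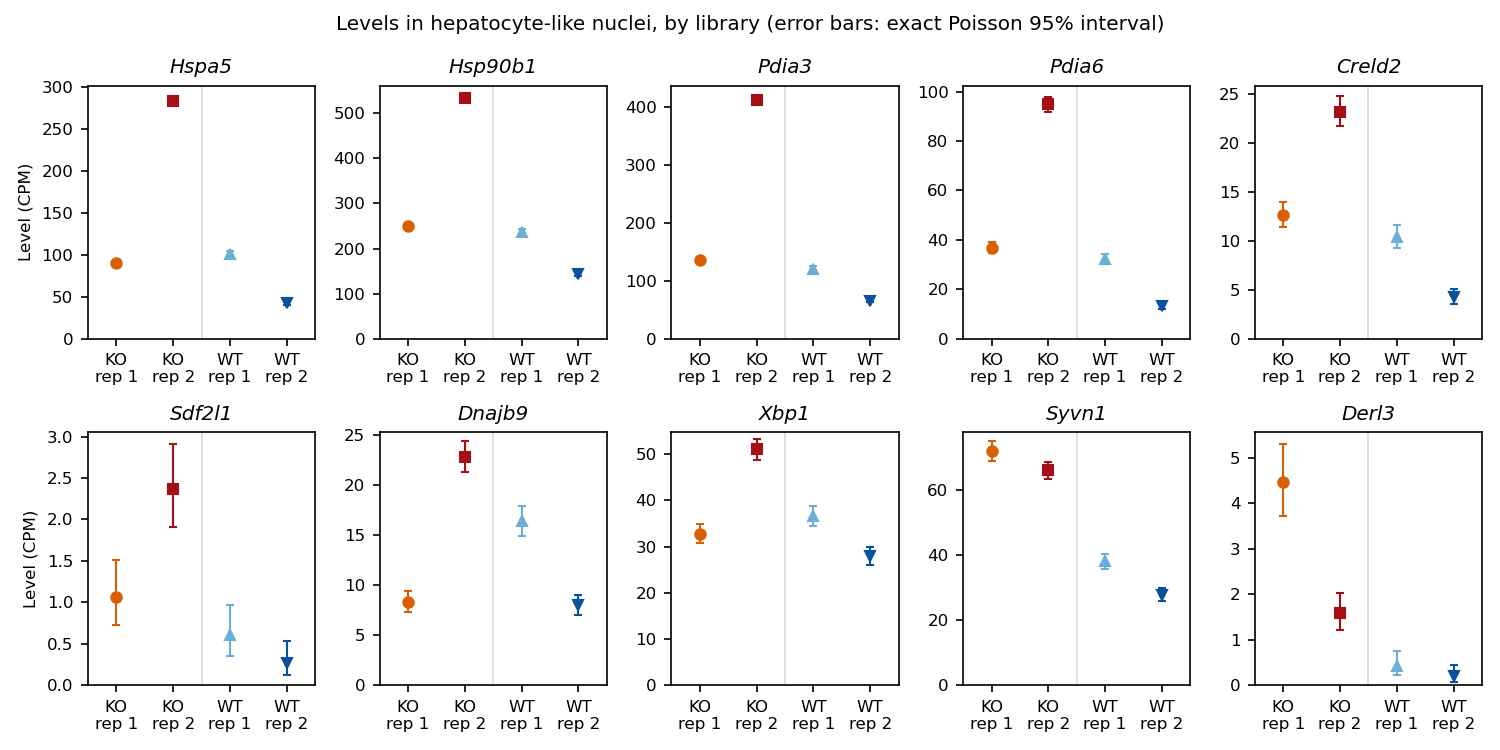
Level of each of the 10 genes in hepatocyte-like nuclei, in CPM on linear axes from 0, in the libraries labelled Brca1-KO (left) and Brca1-WT (right); points are libraries and bars exact Poisson 95% intervals, which cover counting error only. The square of Brca1-KO replicate 2 is highest in 8 panels, and Syvn1 and Derl3 are highest in Brca1-KO replicate 1.

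Among chaperones, Hspa5 (BiP, the main Hsp70 of the ER, which also holds the sensors inactive) was at 90.2 and 283 CPM in libraries labelled Brca1-KO and 101 and 41.9 in Brca1-WT. Hsp90b1 (GRP94, the Hsp90 of the ER) was at 250 and 534 against 237 and 144. For Hspa5 the groups overlapped, and for Hsp90b1 both libraries labelled Brca1-KO lay above both Brca1-WT libraries, replicate 1 by a small margin. The log2 difference, Brca1-KO minus Brca1-WT, was 1.45 (95% interval -0.32 to 3.22) for Hspa5 and 1.10 (-0.11 to 2.31) for Hsp90b1. Without Brca1-KO replicate 2 these differences were 0.35 and 0.40.

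Cofactors of BiP were also among the 10 genes. Dnajb9 (ERdj4), a J protein that works with BiP, was at 8.33 and 22.8 CPM in libraries labelled Brca1-KO and 16.4 and 7.95 in Brca1-WT, so that 1 library of each group was high. Its log2 difference of 0.42 (-1.11 to 1.96) became -0.54 without Brca1-KO replicate 2. Sdf2l1, which binds the J protein Dnajb11 and BiP, gave only 31 and 92 UMIs in libraries labelled Brca1-KO and 17 and 8 UMIs in Brca1-WT, or 1.06 and 2.37 against 0.604 and 0.272 CPM. The groups did not overlap, and the log2 difference was 2.03 (0.39 to 3.68), or 1.28 without Brca1-KO replicate 2.

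The disulfide isomerases form and reshuffle disulfide bonds in new proteins. Pdia3 (ERp57), which acts on glycoproteins with calnexin and calreticulin, was at 135 and 412 CPM in libraries labelled Brca1-KO and 121 and 65.6 in Brca1-WT. Pdia6 was at 36.8 and 94.9 against 32.1 and 13.1. Creld2, an ER-stress-inducible protein with disulfide isomerase activity, was at 12.6 and 23.2 against 10.4 and 4.25. In all 3 genes both libraries labelled Brca1-KO lay above both Brca1-WT libraries, and Brca1-KO replicate 1 was within 1.22-fold of Brca1-WT replicate 1. The log2 differences were 1.62 (0.02 to 3.22) for Pdia3, 1.60 (-0.02 to 3.22) for Pdia6 and 1.35 (-0.03 to 2.72) for Creld2. Without Brca1-KO replicate 2 they were 0.55, 0.71 and 0.80. Pdia3 and Pdia6 overlap Catsper2 and Atp6v1c2 on the opposite strand, and Syvn1 overlaps Mrpl49. No source used here says if the counting heeded strand, so reads from those overlaps cannot be told apart.

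The ERAD genes behaved otherwise. Syvn1 encodes HRD1, the ubiquitin ligase at the centre of ERAD, and was at 71.9 and 65.9 CPM in libraries labelled Brca1-KO and 38.0 and 27.7 in Brca1-WT. Derl3, a derlin that helps move misfolded proteins out of the ER, gave 130 and 61 UMIs in libraries labelled Brca1-KO and 12 and 6 UMIs in Brca1-WT, or 4.45 and 1.57 against 0.426 and 0.204 CPM. For both genes the groups did not overlap and Brca1-KO replicate 1 was highest. The log2 difference was 1.11 (0.56 to 1.67) for Syvn1 and 3.27 (1.49 to 5.04) for Derl3. Syvn1 gave 1.10 without Brca1-KO replicate 1 and 1.14 without Brca1-KO replicate 2. Derl3 gave 2.4 and 3.82 in the same order.

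Xbp1, the transcription factor of the IRE1 branch, was at 32.8 and 51.1 CPM in libraries labelled Brca1-KO and 36.6 and 27.9 in Brca1-WT. The groups overlapped, and the log2 difference was 0.43 (-0.34 to 1.21), or 0.04 without Brca1-KO replicate 2. Its level in Brca1-KO replicate 2 was 1.56 times that in Brca1-KO replicate 1, and for Hspa5 this ratio was 3.14.

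None of the 10 genes passed the genotype test in hepatocyte-like nuclei, and neither did any other gene (0 of 15047, or 0%, at a Benjamini-Hochberg adjusted p below 0.05; edgeR quasi-likelihood test on UMIs summed per library). Adjusted p was 0.996 for each of the 10. At an unadjusted p below 0.05 stood 470 genes (3.12%) and 4 of the 10 (Syvn1, Derl3, Sdf2l1 and Pdia3, with p of 0.0035, 0.0051, 0.025 and 0.048). In 7 of the 10 both libraries labelled Brca1-KO lay above both Brca1-WT libraries, which held for 14.7% of all genes tested, and 8 of the 10 were highest in Brca1-KO replicate 2, as were 29.7% of all genes. The log2 difference was above 0 for each of the 10 genes, as for 49.1% of all genes, and its median was 1.40 over the 10 genes and -0.01 over all genes. For single levels, the exact permutation test of 2 libraries against 2 cannot give a 2-sided p under 0.33. With DESeq2 in place of edgeR, 12 of 25504 genes passed (0.0471%), among them Derl3, with a log2 difference of 3.32 and an adjusted p of 0.014.

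Some nuclei of Brca1-KO replicate 2 and of Brca1-WT lay outside the clusters that held most of their library. In these few nuclei, with no test, Hspa5 was nearer its level in the rest of their own library. In the 4 hepatocyte-like clusters that mostly held the other 3 libraries, 194 nuclei of Brca1-KO replicate 2 had 281 CPM of Hspa5 (266 UMIs), close to the 283 of its 3897 nuclei in its own clusters. In those 4 clusters Hspa5 was at 90.3 in Brca1-KO replicate 1 and 101 and 42.1 in Brca1-WT. In the clusters of Brca1-KO replicate 2, the 48 and 99 Brca1-WT nuclei had 117 and 33.3 CPM, from 45 and 18 UMIs. Syvn1 read the same way, with 72.9 in the 194 nuclei of Brca1-KO replicate 2 and 36.5 and 33.3 in the Brca1-WT nuclei within that library's clusters. The 194 nuclei were shallower, with median UMIs of 3548 to 6174 by cluster, against 7569 for the others of that library, and the part of free RNA in their levels was not tested.

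Across the liver lobule the 10 genes were close to even. Hepatocyte-like nuclei were ranked within each library by landmark genes (none of the 10) and divided into 3 zones of equal numbers. Glul, a perivenous landmark, was at 234 and 288 CPM in the perivenous zone of libraries labelled Brca1-KO and 590 and 360 in that of Brca1-WT, against 8.32 to 16.5 in the periportal zones of the 4 libraries. Cyp2e1, another perivenous landmark, was less even in the periportal zone, at 122 and 120 against 574 and 149. Cut points pooled over libraries put 552 and 1505 nuclei of Brca1-KO and 1189 and 1189 of Brca1-WT in the perivenous zone. Zones are thus relative to the library, which limits the comparison of genotypes within a zone. Between the perivenous and periportal zones 3553 of 13310 genes passed (26.7%; edgeR quasi-likelihood test with the library as a block, Benjamini-Hochberg), and 0 of the 10 did. The interval of the log2 difference, perivenous minus periportal, lay between -0.35 and 0.32 for Syvn1, Hspa5, Hsp90b1, Pdia3, Pdia6, Creld2, Dnajb9 and Xbp1. Only the sparse Sdf2l1 and Derl3 had wider intervals.

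**Figure D2:**
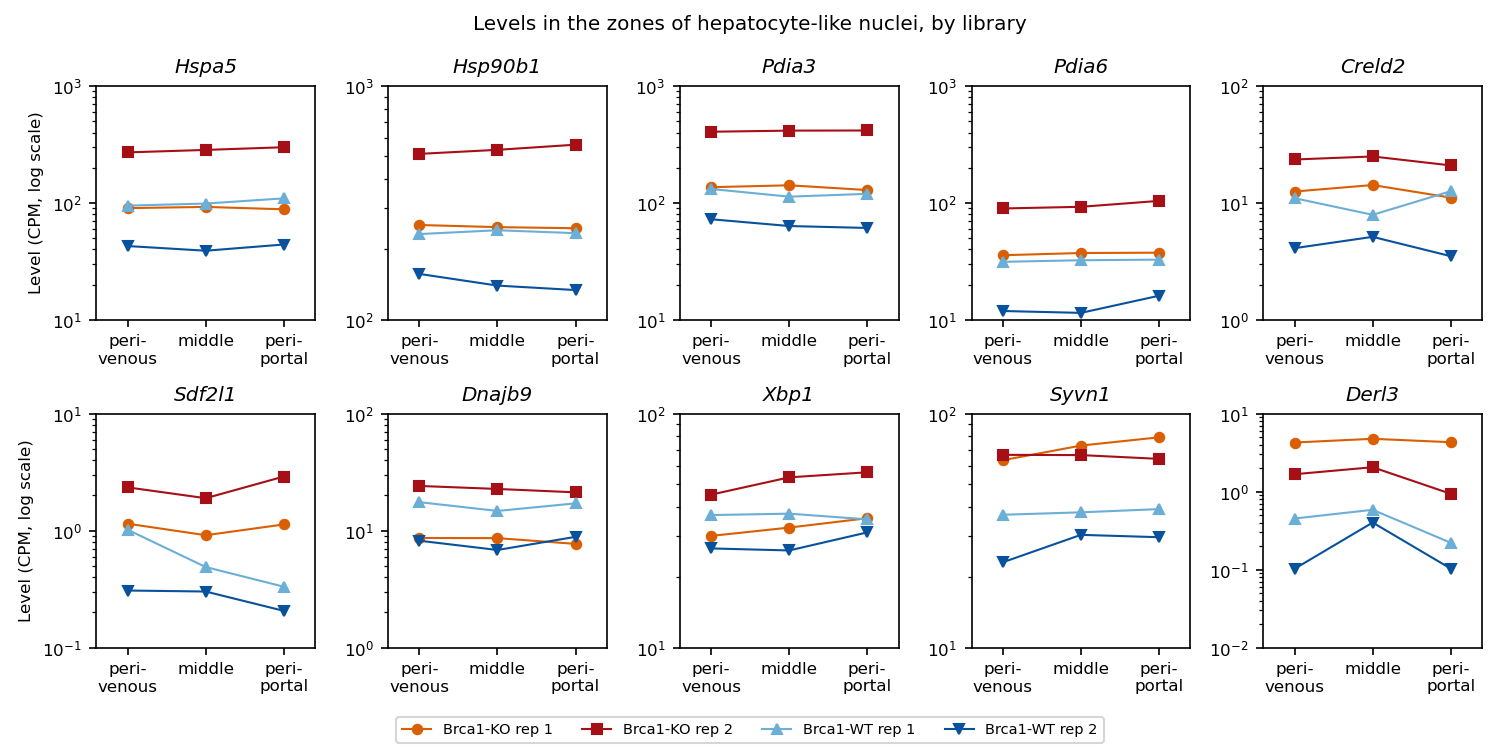
Level of each gene in the perivenous, middle and periportal zone of hepatocyte-like nuclei, in CPM on log axes; each line is 1 library. The lines run nearly level but for the sparse Sdf2l1 and Derl3, and in each zone Brca1-KO replicate 2 is highest for Hspa5, Hsp90b1, Pdia3, Pdia6, Creld2, Sdf2l1, Dnajb9 and Xbp1.

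The largest zone differences among the well counted genes were toward the periportal side. Xbp1 was at 30.02 and 45.1 CPM in the perivenous zone and 35.7 and 56.2 in the periportal zone of libraries labelled Brca1-KO, and at 36.9 and 26.5 against 35.3 and 31.1 in Brca1-WT. It was lower on the perivenous side in 3 of 4 libraries, with a log2 difference of -0.20 (-0.35 to -0.04; adjusted p = 0.063 in edgeR). Pdia6 was lower there in 4 of 4 libraries, at -0.18 (-0.33 to -0.03; adjusted p = 0.074), and Syvn1 in 3 of 4, at -0.17 (-0.34 to 0.00; adjusted p = 0.14). Xbp1 passed without Brca1-WT replicate 1 (-0.26, edgeR adjusted p = 0.031), and Syvn1 passed without Brca1-KO replicate 2 (-0.27, edgeR adjusted p = 0.021). Hsp90b1 differed by 0.02 (-0.11 to 0.16) and Pdia3 by 0.10 (-0.03 to 0.22).

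The genotypes were also compared within each zone. Hspa5 was at 90.2 and 270 CPM in the perivenous zone of libraries labelled Brca1-KO and 94.8 and 42.7 in that of Brca1-WT. In the periportal zone it was at 88.1 and 299 against 109 and 44.0. In the perivenous, middle and periportal zones 7 of the 10 genes had both libraries labelled Brca1-KO above both of Brca1-WT. Of all genes tested, 15.5%, 15.3% and 14.8% did. The counts of 7 are on plain CPM, and the percentages are on TMM-scaled CPM of genes that passed the filter on low counts. The 7 thus include genes that failed this filter, Sdf2l1 in the middle zone and Derl3 in the periportal zone. None of the 10 passed in a zone after the filter on low counts (0% of all genes passed in each). With no filter, Syvn1 and Derl3 passed in the perivenous zone, with log2 differences of 1.20 and 3.43 and an adjusted p of 0.012 for both in edgeR (0.0826% of genes passed). The Derl3 call rests on few UMIs, 41 and 25 there in libraries labelled Brca1-KO and 4 and 1 in Brca1-WT. Syvn1 gave 607 and 996 against 327 and 226 UMIs. The interaction of genotype and zone passed for 0 of 13310 genes in edgeR (0%; 416 at an unadjusted p below 0.05), and for the 10 genes adjusted p was 1.0.

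**Figure D3:**
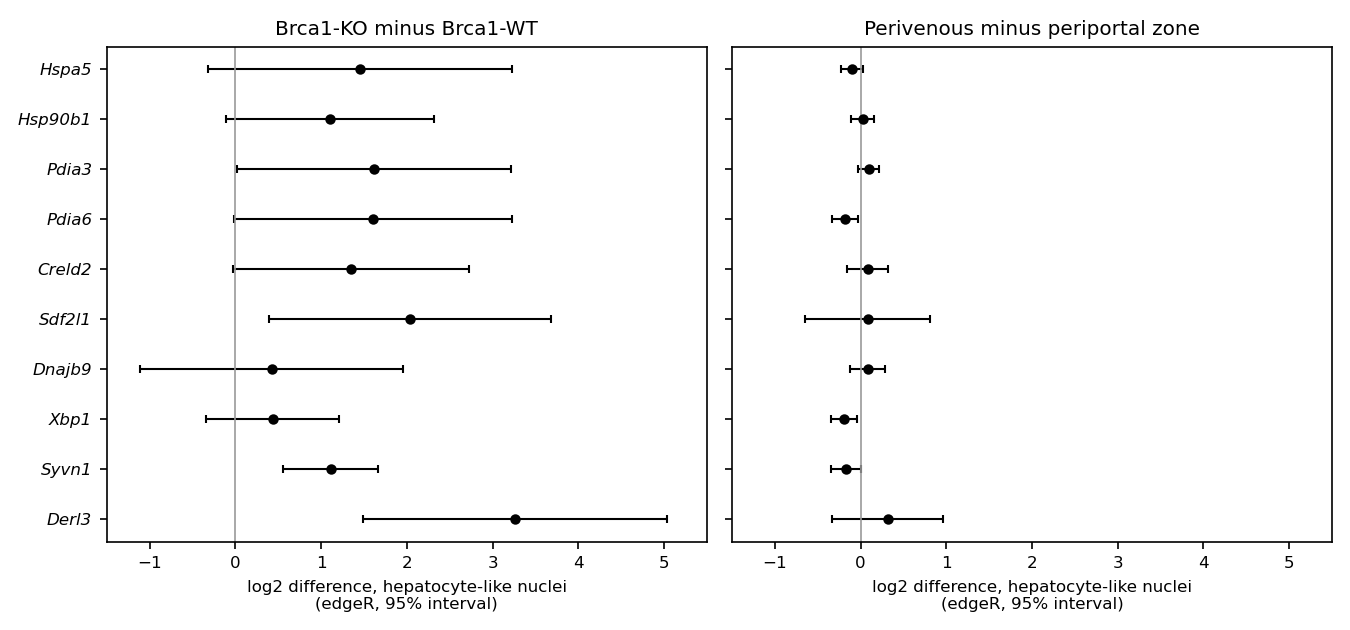
Log2 differences of the 10 genes in hepatocyte-like nuclei, Brca1-KO minus Brca1-WT (left) and perivenous minus periportal zone (right), as points with 95% intervals from edgeR on the same scale. Genotype intervals, from 2 libraries a group, are wider than zone intervals, which come from within libraries and lie near 0 apart from those of Sdf2l1 and Derl3.

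Genes of the same pathway, from lists that hold none of the 10, were set beside them. Of 20 ER chaperones and folding enzymes, 18 had a positive log2 difference between the genotypes (49.1% of all genes) and 14 were highest in Brca1-KO replicate 2 (29.7% of all genes), with a median difference of 0.43. Counts over lists and over all genes, here and below, are on TMM-scaled CPM, and the levels printed are plain CPM. Pdia4, a disulfide isomerase, was at 49.9 and 159 CPM in libraries labelled Brca1-KO and 49.0 and 28.9 in Brca1-WT (1.49), the same order of libraries as for Pdia3. Calr, calreticulin, was at 43.5 and 69.2 against 40.0 and 23.8 (0.87). Ppib, a prolyl isomerase of the ER, was at 17 and 18.2 against 14.4 and 11.4 (0.49). No gene of any list passed the test across all genes.

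Of 18 other ERAD genes, 13 had a positive log2 difference (49.1% of all genes), and in 10 both libraries labelled Brca1-KO lay above both of Brca1-WT (14.7% of all genes). The median was 0.20. Sel1l, the partner that stabilises HRD1, was at 189 and 332 CPM in libraries labelled Brca1-KO and 172 and 137 in Brca1-WT (0.81). Edem1, which hands misfolded glycoproteins to ERAD, was at 131 and 148 against 108 and 106 (0.43). Derl2, a relative of Derl3, was at 66.8 and 83.2 against 57.1 and 60.4 (0.40). The median was 0.20 for 20 genes of the translocon and signal peptide processing and 0.14 for 21 genes of ER to Golgi transport. Tram1, of the translocon, was at 39.1 and 65.3 against 46.2 and 29.7 (0.51), and Sec13, a COPII coat protein, at 8.12 and 6.11 against 10.1 and 10.1 (-0.46).

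Targets of PERK and ATF4 formed a list of their own. Of the 14 tested (of 20 listed), 10 had a negative difference, with a median of -0.24, beside -0.01 over all genes. Cth, an enzyme of cysteine synthesis, was at 461 and 180 CPM in libraries labelled Brca1-KO and 579 and 359 in Brca1-WT (-0.52). Gdf15, of the same list, went the other way, at 2.64 and 2.06 against 2.13 and 1.83 (0.28). Atf4 was at 52.0 and 47.6 against 75.3 and 46.2. Ddit3 (CHOP), a death-promoting transcription factor downstream of PERK that was listed with the sensors and transcription factors, was at 20.3 and 29.3 against 11.8 and 11.6, with a log2 difference of 1.14 (unadjusted p = 0.0068, adjusted p = 0.996 in edgeR). Of 10 sensors and transcription factors of the response, 6 had a positive difference, which is near the 49.1% of all genes, with a median of 0.30. Of the sensors, Ern1 (IRE1) was at 230 and 268 against 206 and 201 (0.34).

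**Figure D4:**
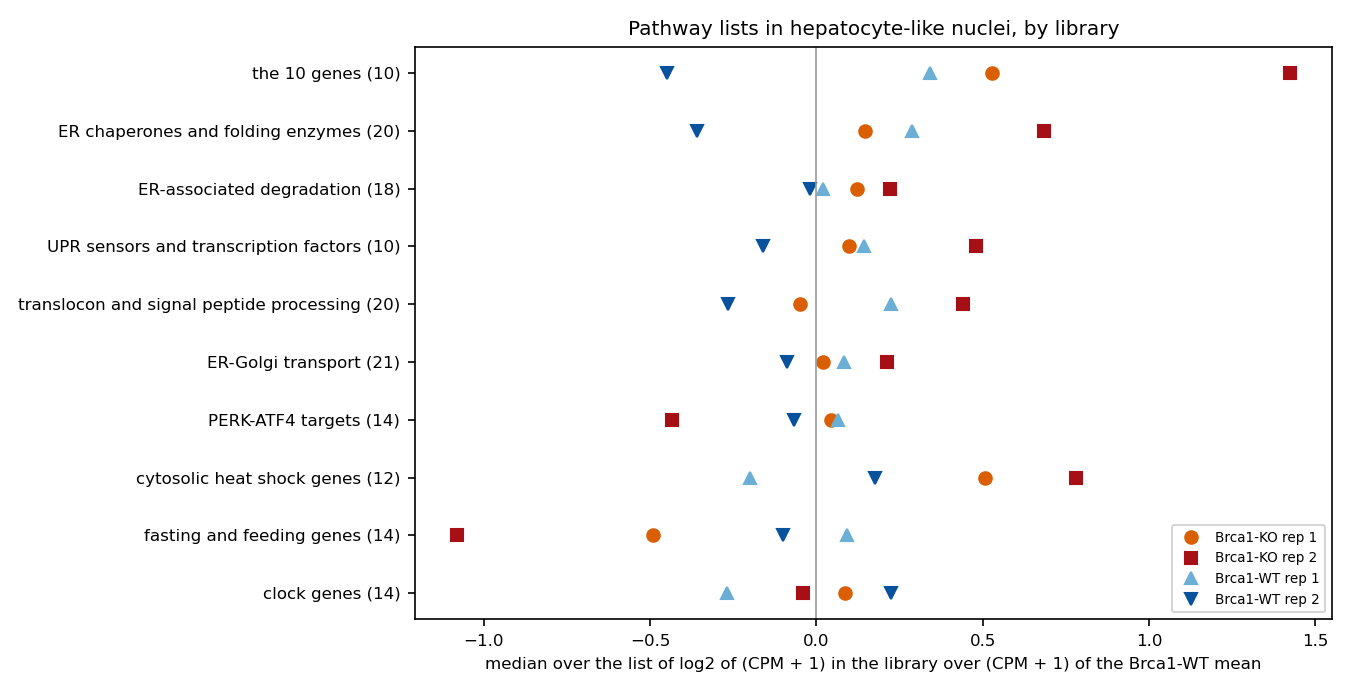
Median over each gene list of the log2 ratio of CPM plus 1 in a library to CPM plus 1 of the Brca1-WT mean, in hepatocyte-like nuclei; each symbol is 1 library and the number of genes tested stands in brackets. Brca1-KO replicate 2 is farthest right for the 10 genes (1.42), the heat shock genes (0.78) and the chaperones (0.69). It is also farthest right for sensors and transcription factors (0.48), translocon (0.44), ERAD (0.22) and ER to Golgi genes (0.21). It is farthest left for PERK and ATF4 targets (-0.43) and fasting and feeding genes (-1.08).

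Other expression programmes differed in the library of highest chaperones, and their part in the result was not tested. Cyp4a14, a fatty acid hydroxylase that rises in fasting, was at 658 and 229 CPM in libraries labelled Brca1-KO and 1225 and 1877 in Brca1-WT. Cyp4a10, of the same family, was at 253 and 68.8 against 529 and 777. Of 14 fasting and feeding genes tested, 9 were lower in both libraries labelled Brca1-KO than in both of Brca1-WT, as were 16.6% of all genes. Of 12 genes tested from a list headed cytosolic heat shock genes, 11 were higher in libraries labelled Brca1-KO without overlap, beside 14.7% of all genes. The list also holds Hspd1 and Hspe1, which are mitochondrial, and the regulator Hsf1. Hsp90aa1, the inducible cytosolic Hsp90, was at 63.7 and 94.8 against 34.4 and 39.2. The clock genes listed peak at different times of day, so no count is given over them. Nr1d1, a clock repressor, was at 24.5 and 42.2 against 18.9 and 14.4, and Arntl, a clock activator, at 74.4 and 14.4 against 42.6 and 54.0. Brca1-KO replicate 2 was thus highest for Nr1d1 and lowest for Arntl. Markers of Kupffer cells in hepatocyte-like nuclei summed to 92.8 and 166 CPM in libraries labelled Brca1-KO and 127 and 112 in Brca1-WT, with 0 of 14 at 0.

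Several other pathway genes passed the zone test. Of the 20 chaperones and folding enzymes, 3 were higher and 5 lower on the perivenous side (edgeR, Benjamini-Hochberg adjusted p below 0.05), beside 26.7% of all genes in either direction. Dnajc3, a BiP co-chaperone that also inhibits PERK, differed by -0.43, and Ero1lb, an oxidase that recharges the disulfide isomerases, by -0.39. Herpud1, which organises the HRD1 complex, differed by -0.38, while Vcp and Ubxn4, which pull substrates from the ER membrane, differed by 0.41 and 0.54. Among regulators, Atf5 differed by -0.54, Creb3l3, a liver relative of ATF6, by -0.53 and Eif2ak3 by 0.31.

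In endothelial-like, Kupffer and macrophage-like, stellate and mesenchymal-like, monocyte and dendritic-like, T cell-like and B cell-like nuclei Hspa5 and Hsp90b1 were highest in Brca1-KO replicate 2. This was not so for every chaperone or class: Dnajb9 was highest in a Brca1-WT library in stellate and mesenchymal-like, T cell-like and monocyte and dendritic-like nuclei, and Hspa5 in plasma cell-like nuclei was lowest in Brca1-KO replicate 2. In endothelial-like nuclei Hspa5 was at 46.3 and 105 CPM in libraries labelled Brca1-KO and 36.4 and 32.5 in Brca1-WT, and Hsp90b1 was at 109 and 239 against 82.0 and 81.2. In Kupffer and macrophage-like nuclei Hspa5 was at 103 and 197 against 74.8 and 79.0, and in stellate and mesenchymal-like nuclei at 33.5 and 64.6 against 32.3 and 22.6. In B cell-like nuclei it was at 62.6 and 182 against 47.2 and 37.5, and in T cell-like nuclei at 54.2 and 144 against 53.8 and 42.1. In these 5 classes Hspa5 in Brca1-KO replicate 1 lay above both Brca1-WT libraries, in T cell-like nuclei only just.

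**Figure D5:**
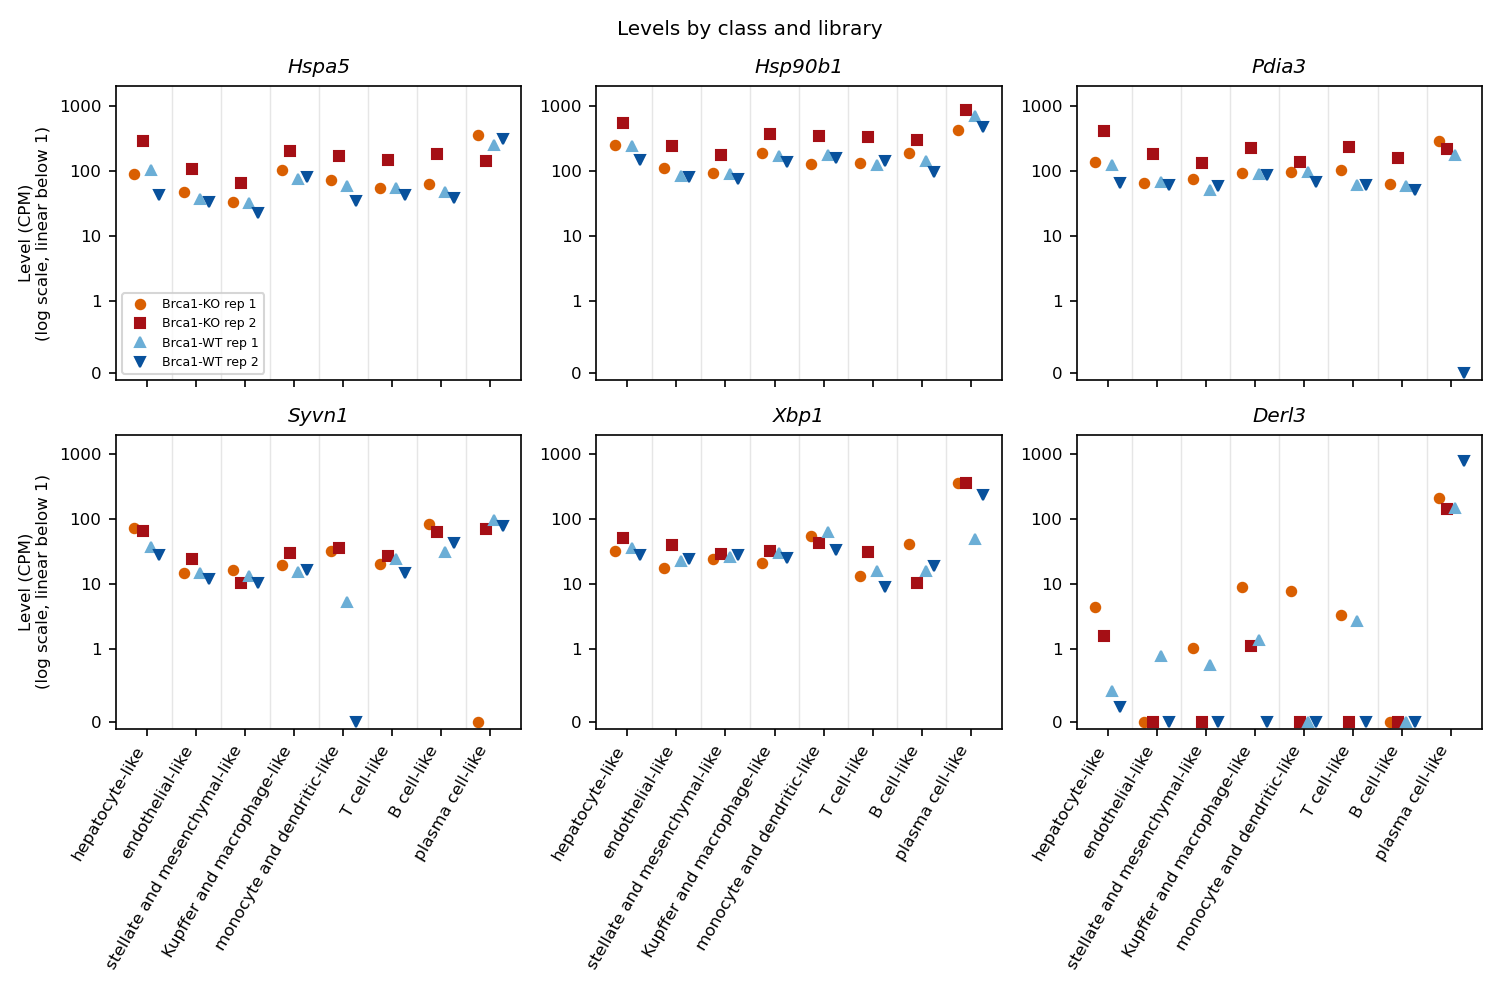
Level of 6 of the genes in each class of nuclei but the neutrophil-like one, in CPM on a log axis that is linear below 1; each symbol is 1 library. Brca1-KO replicate 2 is highest for Hspa5, Hsp90b1 and Pdia3 in each class shown, except for Hspa5 and Pdia3 in plasma cell-like nuclei, and Derl3 is highest in plasma cell-like nuclei.

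After the filter on low counts, none of the 10 genes passed in these classes with all 4 libraries (0% of all genes passed in each, but 0.0296% in monocyte and dendritic-like nuclei), and the smallest adjusted p was 0.528, for Hspa5 and Hsp90b1 in B cell-like nuclei (edgeR). Of the 10, 8 could be tested in endothelial-like nuclei, 6 in Kupffer and macrophage-like and in stellate and mesenchymal-like nuclei, 4 in B cell-like, 3 in T cell-like and 2 in monocyte and dendritic-like nuclei; the rest were too sparse. Both libraries labelled Brca1-KO lay above both of Brca1-WT for 3 of the 8 endothelial genes, beside 15% of all genes. They did so for 5 of the 6 in Kupffer and macrophage-like nuclei, beside 16.2%, and for 4 of the 6 in stellate and mesenchymal-like nuclei, beside 16%. These counts are over genes that passed the filter and describe those genes alone. With all 4 libraries and no filter, edgeR called Hspa5 and Hsp90b1 in endothelial-like nuclei, with log2 differences of 1.14 and 1.11 and adjusted p of 0.041 and 0.014 (0.183% of genes passed). It also called them in Kupffer and macrophage-like nuclei, with 1.05 and 0.95 and adjusted p of 0.045 and 0.042 (0.378%). In stellate and mesenchymal-like nuclei it called Pdia3, with 0.96 and an adjusted p of 0.028 (0.156%). Those calls thus depend on the filter.

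With Brca1-KO replicate 1 left out, so that replicate 2 alone stood for Brca1-KO and was assumed to vary like the other libraries, Hspa5, Hsp90b1, Pdia3 and Pdia6 all passed in endothelial-like, in Kupffer and macrophage-like and in stellate and mesenchymal-like nuclei (edgeR). In endothelial-like nuclei their log2 differences were 1.58 to 1.84, where 606 of 12162 genes (4.98%) passed. In Kupffer and macrophage-like nuclei they were 1.38 to 1.80 (5.72% of genes passed), and in stellate and mesenchymal-like nuclei 1.17 to 1.31 (4.04%). Hspa5, Hsp90b1 and Pdia3 also passed in B cell-like nuclei, with log2 differences of 2.17, 1.37 and 1.59 (155 of 5003 genes, or 3.1%, passed), and Pdia3 in T cell-like nuclei, with 2.03 (77 of 7059 genes, or 1.09%). With Brca1-KO replicate 2 left out instead, 0 of the 10 passed in each of these 5 classes. These calls rest on 1 library.

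Hepatocyte transcripts were also counted in these classes. The median hepatocyte marker was at 23.3% and 43.6% of its hepatocyte-like level in endothelial-like nuclei of libraries labelled Brca1-KO, and at 23.5% and 22.6% in Brca1-WT. Hspa5 in the same nuclei was at 51.3% and 37.0% of its hepatocyte-like level in libraries labelled Brca1-KO and 36.1% and 77.7% in Brca1-WT. In stellate and mesenchymal-like nuclei the marker median was 18.2% and 22.3% against 16.2% and 18.4%, and Hspa5 stood at 37.1% and 22.8% against 32.0% and 53.9%. In Brca1-KO replicate 2 the Hspa5 share was thus below the marker median in endothelial-like nuclei and level with it in stellate and mesenchymal-like nuclei. In the other 3 libraries it was above the median in both classes. In Brca1-KO replicate 2 Hspa5 also stood just below the marker median in B cell-like nuclei (64.23% beside 65.98%) and T cell-like nuclei (50.65% beside 53.23%). In the other 3 libraries it was above the median in these classes too. In monocyte and dendritic-like nuclei of Brca1-KO replicate 2 it was above the median (58.73% beside 30.81%). In Kupffer and macrophage-like nuclei the marker median was 20.7% and 33.8% against 21.4% and 23.7%, and Hspa5 stood above it in all 4 libraries, at 114.5% and 69.6% in libraries labelled Brca1-KO and 74.2% and 188.5% in Brca1-WT. The part of free RNA in the level of Brca1-KO replicate 2 was not tested.

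Syvn1 was also measured outside hepatocyte-like nuclei. In endothelial-like nuclei it was at 15.1 and 24.7 CPM in libraries labelled Brca1-KO and 14.9 and 12.2 in Brca1-WT, and in stellate and mesenchymal-like nuclei at 16.8 and 10.4 against 13.4 and 10.5. In B cell-like nuclei, with 12 and 12 UMIs against 8 and 7, it was at 83.5 and 62.4 against 31.5 and 43.7. The difference between hepatocyte-like and endothelial-like nuclei in the genotype effect was 0.55 (-0.24 to 1.34) on the log2 scale for Syvn1, and did not pass (edgeR interaction, adjusted p = 1.0; 0 of 16189 genes passed, 0%, and 479 stood at an unadjusted p below 0.05). In these sums over nuclei, fewer nuclei that express a gene and less RNA per nucleus cannot be told apart. In hepatocyte-like nuclei thinned to 1000 UMIs, Syvn1 was found in 6.86% and 6.02% of nuclei labelled Brca1-KO and 4.75% and 3.21% of Brca1-WT. Shares this low follow the mean level, so they do not separate these readings.

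Derl3 was a gene of plasma cell-like nuclei. This cluster, led by Igkc and Ighm, held 9 and 14 nuclei of libraries labelled Brca1-KO and 12 and 10 of Brca1-WT, too few for a test. Derl3 gave 3 and 2 UMIs there in libraries labelled Brca1-KO and 6 and 10 UMIs in Brca1-WT, or 212 and 142 against 147 and 778 CPM. In B cell-like nuclei it gave 0 UMIs in all 4 libraries, which allows up to 20.9 and 15.6 CPM in libraries labelled Brca1-KO and 11.8 and 18.7 in Brca1-WT. Since Derl3 was among the 2000 genes used for clustering, its place in this cluster is a description.

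Plasma cells make antibody and depend on Xbp1. In plasma cell-like nuclei Xbp1 was at 354 and 355 CPM in libraries labelled Brca1-KO and 48.9 and 233 in Brca1-WT, from 2 to 5 UMIs each, and Hsp90b1 was at 424 and 853 against 684 and 467. The mean over the 4 libraries was highest in this class for Hspa5, Hsp90b1, Pdia6, Creld2, Syvn1, Derl3 and Xbp1. For Derl3 the range of this class did not overlap with that of the next class, and for the other 6 it did. Hepatocyte-like nuclei came first for Pdia3 and Dnajb9, and stellate and mesenchymal-like nuclei last for Syvn1, Hspa5, Hsp90b1, Pdia3, Pdia6 and Creld2, in each case overlapping with the neighbouring class. Immunoglobulin and other plasma cell markers in hepatocyte-like nuclei summed to 44.8 and 32.8 CPM in libraries labelled Brca1-KO and 45.2 and 42.4 in Brca1-WT, with 1 and 2 of the 12 at 0 against 1 and 3, and their part in the Derl3 level was not tested.

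Genes outside the lists were ranked by likeness to the mean of the 10 genes over 28 sums (7 classes in 4 libraries). Only genes with a mean of at least 10 CPM in hepatocyte-like nuclei were ranked. The most alike of these were Mug2, Serpina10, C9, Gclm and Hook3, with Pearson correlations of 0.793, 0.792, 0.784, 0.779 and 0.778. The sums share libraries and free RNA, and the correlations are given with no test. Of the 10 genes, Hspa5 (0.914), Pdia3 (0.8996) and Hsp90b1 (0.872) were most like their common mean, while Sdf2l1 (0.191) and Derl3 (0.291) were least like it. Each of the 10 genes is itself part of that mean.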

How the data were processed

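The deposited values were UMI counts for every gene in every barcode, without normalization. Per the file headers, the authors made them with Cell Ranger 6.0.0. The submitters' processing notes name GRCh38, a human build, while the identifiers are mouse; the use of strand and of introns is not given there. Gene overlaps are from GENCODE vM21. All 10 genes were found in the RefSeq promoter table.

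Nuclei with at least 500 genes and at most 5% mitochondrial UMIs were kept, called doublets (Scrublet in scanpy 1.11.5; 5.01% and 2.99% of nuclei labelled Brca1-KO, 11.3% and 7.33% of Brca1-WT) removed, and clusters (2000 variable genes, 30 components, Leiden resolution 1) named from markers by a score rule set after the data were seen. Unnamed clusters were left out. UMIs were summed per library and class and tested with edgeR 4.0.16 (TMM, filterByExpr, Benjamini-Hochberg), after tests on simulated data; classes needed at least 30 nuclei in each library. Named list genes had the smallest unadjusted p among genes averaging 1 or more in log2 CPM, up to 3 per list and comparison. Atf4 and Arntl were named after their values were seen. Not every gene that the rule names is reported here. The members and lists were chosen with earlier results of these data known. Replicate numbers do not pair the libraries. P-values measure the spread between these libraries, and intervals of levels cover counting error only.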

Additional observations from a re-analysis of the deposited data

How the results depend on the processing

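In hepatocyte-like nuclei the count of genes called between genotypes was 0, 1 with no filter, 12 with DESeq2 and 0 to 58 on leaving out a library, with 58 without Brca1-KO replicate 1. The replicate block (r = -0.11 between same-numbered libraries) and, chosen after seeing the data, the crossed pairing, the added unnamed cluster and the loss of the cluster led by mitochondrial transcripts each called 0. With no filter 39 genes were called in endothelial-like, 70 in Kupffer and macrophage-like, 30 in stellate and mesenchymal-like, 18 in T cell-like, 13 in B cell-like and 5 in monocyte and dendritic-like nuclei, 19, 1 and 3 in the perivenous, middle and periportal zones, 49 for genotype by zone and 2 for genotype by class. DESeq2 called 5, 7 and 3 in the zones and 0 in monocyte and dendritic-like nuclei, where the replicate block also called 0. Leaving out a library gave 0 to 606, 0 to 522, 0 to 425, 0 to 77, 0 to 155 and 1 to 47 in those classes, the highest each time without Brca1-KO replicate 1, and 0 to 24, 0 to 43 and 0 to 1 in the zones. The zone comparison called 2477 to 3158 genes so, and 1600 from nuclei thinned to 1000 UMIs. Directions of the 10 genes turned in 4 cases. Between genotypes Dnajb9 ranged from -0.54 (without Brca1-KO replicate 2) to 1.05 on leaving out a library. Between zones Hsp90b1 ranged from -0.045 (without Brca1-WT replicate 2) to 0.074, Sdf2l1 from -0.14 (without Brca1-WT replicate 1) to 0.54, and Dnajb9 was -0.27 in thinned nuclei; the causes were not tested. Depth limits Sdf2l1 and Derl3.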

Other observations

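A cluster of 172 nuclei, 150 of Brca1-WT replicate 1 and 22 of Brca1-WT replicate 2, was left unnamed. It was led by Thsd4, Cyp2b9, Gpc3, an oncofetal cell-surface proteoglycan, and Cdh1, and its best score was for hepatocyte markers. Xbp1 was at 59.7 and 100 CPM in these nuclei (74 and 18 UMIs), against 36.6 and 27.9 in hepatocyte-like nuclei of the same libraries. Hspa5 was at 49.2 and 44.5, against 101 and 41.9, and Dnajb9 gave 4 and 0 UMIs. Xbp1 was thus higher than in hepatocyte-like nuclei in both libraries, while Hspa5 was lower in replicate 1 and near level in replicate 2. Clusters were made from the same counts, so these values carry no test.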
